A study of Homo sapiens with 4 samples.

Results

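Regulators of G protein signaling (RGS) proteins were examined in Reh-6-MPR cells, a derivative of the human B-cell acute lymphoblastic leukemia (B-ALL) line Reh that was made resistant to 6-mercaptopurine (6-MP), a thiopurine antimetabolite. The genes described are RGS1, RGS2, RGS3, RGS9, RGS10, RGS12, RGS14, RGS16, RGS18 and RGS19, 10 of the 29833 genes in the expression table. They were found by gene symbol, but the set had been chosen by earlier results of the same FPKM values in the same libraries, so the values below are descriptions and no difference among them was put to a test. Another 11 rows of the table carry an RGS name, and RGS4, RGS7, RGS8, RGS21 and RGS7BP had no row. Cells had received PBS as vehicle, histidine at 4 mM, 6-MP at 1.0 µg/mL, or histidine and 6-MP together (combined treatment) for 48 h. The labels give the cells of all 4 groups as wild type and 6-MP resistant, so untreated parental Reh cells are not part of the comparison. Each group was 1 library, and whether the resistant line is 1 clone was not stated in the sources used here. There is therefore no replicate check of any difference, and no p-value can be given.

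Heterotrimeric G proteins carry signals from cell surface receptors, and the alpha subunit is active while it holds GTP. RGS proteins speed the hydrolysis of this GTP through a shared RGS domain, which shortens the signal of chemokine, lipid and adrenergic receptors. In lymphocytes they are best known for limiting the migration of cells towards chemokines. By sequence and domain content the family is divided into subfamilies, of which R4 holds small proteins made of little more than the RGS domain, R12 includes proteins that also bind other G protein or Ras family members, R7 members pair with the G beta subunit GNB5, and RZ members are small and rich in cysteine.

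Expression was given as FPKM, reads scaled to gene length and to library depth, which allows levels of different genes to be compared. The reads behind each value were recovered, and the libraries were divided by 12899122 (combined treatment) to 15486376 (histidine) reads. Brackets give exact 95% intervals that cover counting error only. Although the combined library was the shallowest, 25443 genes had a value above 0 in it, against 23635 to 23978 in the other 3 libraries. All 12 B-lineage markers in the table passed a mean FPKM of 1, with a summed FPKM of 1951 to 2084, and none of them reached an absolute log2 fold change of 1 against vehicle. Of 7 T cell markers 4 had a row, and their summed FPKM was 12.3 to 13.0 in the other 3 libraries and 34.8 after the combined treatment, mostly TRAC (11.6 after vehicle, 32.1 after the combined treatment), while CD8A was listed at 0 after vehicle and after histidine. The sum was 27.0 to 31.2 and 43.7 for 4 monocyte and granulocyte markers, 1.90 to 2.59 and 3.59 for 5 megakaryocyte markers, and 0.355 to 0.437 and 1.29 for 4 erythroid markers. The single stromal marker with a row, COL1A1, was at 0.869 to 1.05 and 2.04. The summed levels of these other cell types were thus all highest after the combined treatment, as were most RGS genes below, and their part in those values was not tested. In libraries made from whole cultures, a change in the number of cells of a kind and a change in RNA per cell cannot be told apart.

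Of the 10 genes, 4 lie on chromosome 1, all of subfamily R4. RGS18, RGS1 and RGS2 belong to a cluster of 4 coding genes with RGS13 that covers 653.8 kb, and RGS16 (ENSG00000143333) lies apart from it at chr1:182598623-182604389. Positions are those of the deposited table on GRCh38, and levels are given per gene, not per isoform. The windows of 250 bases in front of the start sites of RGS16, RGS1 and RGS2 are shown because these genes share a subfamily and a chromosome and stood at unlike distances from vehicle after the combined treatment. They are RefSeq sequences of GRCh38.p14, read 5′ to 3′ on the strand of the gene, from chr1:182604390-182604639 (minus strand) for RGS16, chr1:192575523-192575772 (plus strand) for RGS1 and chr1:192808789-192809038 (plus strand) for RGS2. Capitals mark TATAAA for the TATA box, CCAAT for the box of that name and GGGCGG for the GC box, each searched on both strands and chosen after the expression values had been seen.
RGS16: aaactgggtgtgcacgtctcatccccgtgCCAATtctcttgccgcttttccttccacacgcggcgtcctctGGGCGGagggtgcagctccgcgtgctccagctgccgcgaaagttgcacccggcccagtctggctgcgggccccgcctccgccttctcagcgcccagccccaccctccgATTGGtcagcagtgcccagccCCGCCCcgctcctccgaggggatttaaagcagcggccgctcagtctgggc
RGS1: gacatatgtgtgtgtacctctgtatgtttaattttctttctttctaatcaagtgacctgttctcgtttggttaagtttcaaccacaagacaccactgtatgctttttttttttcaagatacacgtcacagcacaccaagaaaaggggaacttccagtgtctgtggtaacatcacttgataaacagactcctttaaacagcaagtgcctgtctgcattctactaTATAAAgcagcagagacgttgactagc
RGS2: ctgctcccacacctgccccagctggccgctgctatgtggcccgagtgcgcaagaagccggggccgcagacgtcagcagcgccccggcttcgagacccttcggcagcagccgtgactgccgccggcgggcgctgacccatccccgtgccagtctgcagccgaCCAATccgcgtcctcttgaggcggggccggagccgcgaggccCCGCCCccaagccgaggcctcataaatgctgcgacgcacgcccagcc

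The windows of RGS16 and RGS2 were rich in G and C (68.4% and 72.8%), whereas that of RGS1 held 39.2%, and the median over 35116 windows of the same length was 58%. In the RGS16 window CCAAT occurred 221 bases and, on the other strand, 71 bases before the start, and GGGCGG occurred 179 bases and, on the other strand, 50 bases before it. The RGS2 window held CCAAT 89 bases and, on the other strand, GGGCGG 47 bases before the start. RGS1 had TATAAA 27 bases before its RefSeq start and neither of the other motifs. The RGS1 window ends at chr1:192575772, inside the gene as deposited, which begins at chr1:192575763. Of all windows, 10.7% held TATAAA, 32.0% held CCAAT and 42.6% held GGGCGG. The matches printed do not overlap, and a match of letters does not show that a factor binds there. The RGS18 window (34.8% G and C) held none of the 3 motifs.

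The most abundant RGS transcripts of Reh-6-MPR cells were RGS19 and RGS10. After vehicle, RGS19 was at an FPKM of 24.6 (22.8 to 26.4) and RGS10 at 16.6 (14.7 to 18.5), which is 39.8% and 26.8% of the summed FPKM of the 10 genes. RGS14 at 7.28 (6.57 to 8.04) and RGS12 at 6.75 (6.39 to 7.12) came next, and their intervals overlapped. RGS2 at 2.68 (2.12 to 3.33) and RGS9 at 2.17 (1.89 to 2.48) also overlapped. RGS3 and RGS1 were below 1, and RGS16 and RGS18 rested on 2 reads and 1 read. The order was thus set by pairs of genes whose neighbours within a pair could not be told apart by counting error, apart from RGS19 and RGS10. After the combined treatment these first 2 genes overlapped as well, at 29.7 (27.7 to 31.9) and 27.1 (24.7 to 29.8), and RGS16 at 4.57 stood next to RGS2 at 4.23 in the middle of the order, again with overlapping intervals.

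**Figure D1:**
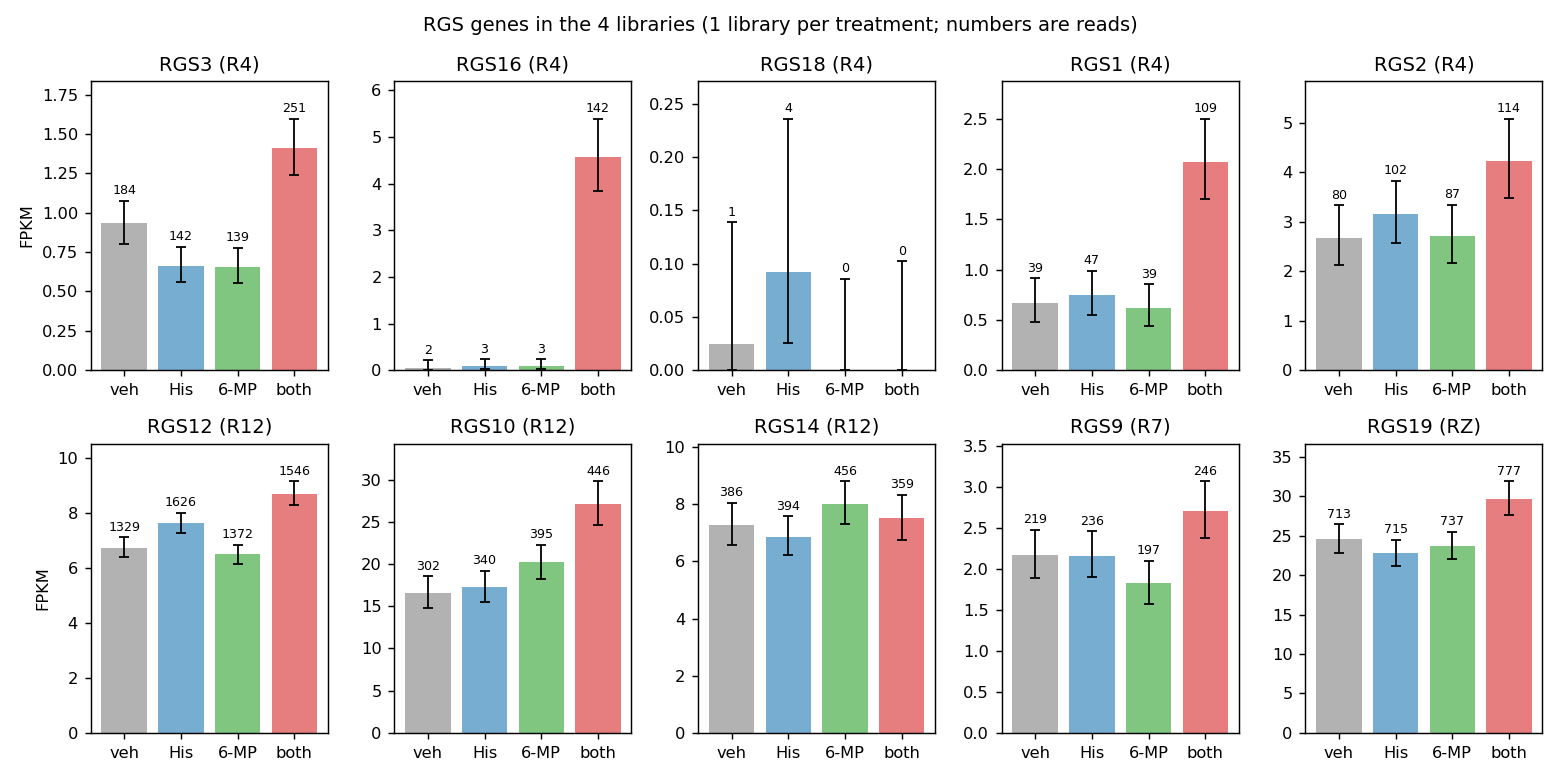
FPKM (vertical axes, each panel on its own linear scale from 0) of the 10 RGS genes in the libraries of vehicle (veh), histidine (His), 6-MP and the combined treatment (both), 1 library each. Bars are the deposited values, error bars exact 95% counting intervals and numbers the recovered reads, and RGS16 is at 2 to 3 reads in all libraries except the combined one, where it has 142.

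RGS16 differed most between libraries. It encodes an R4 protein that acts on Gi and Gq alpha subunits and is known to be induced in activated lymphocytes. Its FPKM was 0.0580 after vehicle, 0.0804 after histidine, 0.0812 after 6-MP and 4.57 (3.85 to 5.39) after the combined treatment, on 2, 3, 3 and 142 reads over a length of 2408 bases. Only the combined library stood above the floor of 3 reads, and the intervals of the other 3 libraries overlapped one another and reached at most 0.237. RGS16 went from 0.0941% of the summed FPKM of the 10 genes after vehicle to 5.19% after the combined treatment. Scaled to depth, its reads were 78.8-fold higher than after vehicle (21.4 to 657), 56.8-fold higher than after histidine (19.1 to 279) and 56.3-fold higher than after 6-MP (18.9 to 276). Against the other 3 libraries pooled, 142 reads stood against 8 reads in 45145165, a ratio of 62.1 (30.7 to 147). As log2(FPKM + 1), a scale on which low genes appear to differ less than they do, RGS16 was 2.40 above vehicle, 2.37 above histidine and 2.37 above 6-MP. Among the 12750 genes whose mean FPKM was 1 or more these differences ranked 20, 25 and 22 from the top, and by the smallest of the 3 differences RGS16 ranked 11, or 8 among 9997 coding genes. RGS16 passed this low-value filter (mean FPKM 1.20) only through the combined library, so a large difference was a condition of its being ranked.

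RGS1, RGS2 and RGS18 form the chromosome 1 cluster with RGS13. RGS1 (ENSG00000090104, chr1:192575763-192580024) dampens the response of B and T cells to chemokines. It had an FPKM of 0.669 (0.475 to 0.914) after vehicle, 0.745 (0.547 to 0.991) after histidine, 0.624 (0.444 to 0.853) after 6-MP and 2.07 (1.70 to 2.50) after the combined treatment. The first 3 libraries, with 39 to 47 reads, overlapped, and the combined library, with 109 reads, did not overlap any of them. Its read ratio was 3.10 to vehicle (2.13 to 4.59), 2.78 to histidine (1.96 to 4.01) and 3.32 to 6-MP (2.29 to 4.92). On the log2 scale the read ratio to vehicle was 1.63 (1.09 to 2.20). As log2(FPKM + 1) the differences were 0.88 from vehicle, 0.82 from histidine and 0.92 from 6-MP, all short of the absolute difference of 1 by which genes are counted here. Whether RGS1 passed this threshold depended on the pseudocount, since with 0.1 in place of 1 the differences were 1.50, 1.36 and 1.59. After scaling every library to a common total (TPM) they were 1.37, 1.25 and 1.43. The summed FPKM of a library was 242630 to 248756, short of the TPM total, so this scaling raised all values by a similar factor. Because the pseudocount and filter stayed at 1, both weighed less, so the TPM differences mostly repeat the effect of the pseudocount. RGS1 too passed the low-value filter (mean FPKM 1.03) only through the combined library.

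RGS2 (ENSG00000116741, chr1:192809039-192812275), which prefers Gq alpha subunits, had an FPKM of 2.68 after vehicle, 3.15 after histidine, 2.72 after 6-MP and 4.23 (3.49 to 5.08) after the combined treatment, on 80, 102, 87 and 114 reads. The combined library was the highest, but its interval overlapped that of histidine (2.57 to 3.83). The read ratio to vehicle was 1.58 (1.18 to 2.13), to 6-MP 1.56 (1.17 to 2.08) and to histidine 1.34 (1.02 to 1.77). When the libraries were scaled by their median ratio over genes above 0 in all of them (median-ratio scaling), all 3 intervals reached 0 on the log2 scale, with 0.42 (-0.0072 to 0.85) against vehicle, 0.40 (-0.011 to 0.82) against 6-MP and 0.22 (-0.18 to 0.62) against histidine. RGS18 (ENSG00000150681, chr1:192158462-192185815), known from platelets and megakaryocytes, had 1 read after vehicle, 4 after histidine and 0 after 6-MP and after the combined treatment. The floor of 3 reads stands at an FPKM of 0.0698 after 6-MP and 0.0830 after the combined treatment, and the exact interval of a count of 0 reached 0.0858 and 0.102, so no level or fold of RGS18 could be given at this depth. RGS13, the other coding gene of the cluster, was at 0.271, 0.240, 0.121 and 0.314. Within the cluster, the interval of the combined library was apart from all others in RGS1. RGS18 and RGS13 lie on either side of RGS1 at 389.9 kb and 56.1 kb. An antisense-strand row, ENSG00000285280, overlaps RGS18, RGS1 and RGS2 and had an FPKM of 0.0154 to 0.0576. The library kit keeps the strand, and the strand setting of the counting is not given in the sources used here.

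RGS3 (ENSG00000138835, chr9:113444731-113597743), the remaining R4 gene, acts on Gi and Gq alpha subunits and has long isoforms with further domains. Its FPKM was 0.932 (0.802 to 1.08) after vehicle, 0.665 (0.560 to 0.784) after histidine, 0.657 (0.552 to 0.776) after 6-MP and 1.41 (1.24 to 1.60) after the combined treatment, on 184, 142, 139 and 251 reads. Both single agents lay below vehicle, without overlap, and the combined library lay above it. The log2 read ratio to vehicle was -0.49 (-0.81 to -0.16) after histidine, -0.50 (-0.83 to -0.18) after 6-MP and 0.60 (0.32 to 0.88) after the combined treatment. Compared with the single agents, the combined treatment gave read ratios of 2.12 (1.72 to 2.63) to histidine and 2.15 (1.74 to 2.66) to 6-MP. With a mean FPKM of 0.916, RGS3 did not pass the low-value filter and has no rank. Summed over the 5 R4 genes, FPKM was 4.36 after vehicle, 4.74 after histidine, 4.08 after 6-MP and 12.3 after the combined treatment.

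Subfamily R12 supplied the largest summed FPKM, 30.6 after vehicle, 31.7 after histidine, 34.7 after 6-MP and 43.4 after the combined treatment. RGS10 (ENSG00000148908, chr10:119499817-119542719) encodes a small protein of blood cells and brain that acts on Gi alpha subunits. It had an FPKM of 16.6 after vehicle, 17.2 after histidine, 20.2 (18.3 to 22.3) after 6-MP and 27.1 (24.7 to 29.8) after the combined treatment. The reads numbered 302, 340, 395 and 446. The combined library did not overlap any other. Its read ratio was 1.64 to vehicle (1.41 to 1.90), 1.57 to histidine (1.36 to 1.82) and 1.34 to 6-MP (1.17 to 1.54). After median-ratio scaling the interval against 6-MP reached 0, at 0.19 (-0.0091 to 0.39) on the log2 scale, while those against vehicle and histidine lay above it. After 6-MP alone the log2 read ratio to vehicle was 0.29 (0.068 to 0.51).

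RGS12 (ENSG00000159788, chr4:3293028-3439913) encodes a large protein that also binds Ras family members and inactive G alpha subunits. It had an FPKM of 6.75 after vehicle, 7.63 (7.27 to 8.01) after histidine, 6.50 after 6-MP and 8.71 (8.28 to 9.16) after the combined treatment. With 1329 to 1626 reads per library it was the most precisely counted of the 10 genes. Histidine was above vehicle and 6-MP, and the combined library was above all 3. The read ratio of the combined treatment was 1.29 to vehicle (1.20 to 1.39), 1.34 to 6-MP (1.25 to 1.44) and 1.14 to histidine (1.06 to 1.22), and that of histidine to vehicle was 1.13 (1.05 to 1.22). After median-ratio scaling the log2 read ratio of the combined treatment to histidine turned to -0.01 (-0.11 to 0.09), and the combined library was above vehicle and 6-MP only. A transcribed pseudogene on the same strand, ENSG00000248840, overlaps RGS12 and had an FPKM of 1.66 after vehicle and 3.54 after the combined treatment, so reads of the overlap may be split between them.

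RGS14 (ENSG00000169220, chr5:177357924-177372596) shares the Ras and G alpha binding parts of RGS12. It had an FPKM of 7.28 (6.57 to 8.04) after vehicle, 6.87 (6.21 to 7.58) after histidine, 8.02 (7.30 to 8.79) after 6-MP and 7.51 (6.75 to 8.33) after the combined treatment. All 4 intervals overlapped. The read ratio of the combined treatment was 1.03 to vehicle (0.892 to 1.19), 1.09 to histidine (0.946 to 1.27) and 0.936 to 6-MP (0.813 to 1.08), and all 3 intervals held 1. Against 6-MP this depended on the scaling, since after median-ratio scaling the combined library was lower, at -0.33 (-0.53 to -0.13) on the log2 scale.

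RGS9 (ENSG00000108370, chr17:65100812-65227703) is the only one of the R7 genes above 5 reads in every library. It is known for ending the light response in photoreceptors, and it needs GNB5 for its stability. Its FPKM was 2.17 after vehicle, 2.16 after histidine, 1.82 (1.58 to 2.09) after 6-MP and 2.70 (2.38 to 3.06) after the combined treatment. The combined library was highest and its interval overlapped those of vehicle (1.89 to 2.48) and histidine (1.89 to 2.46). The read ratio was 1.25 to vehicle (1.03 to 1.50), 1.25 to histidine (1.04 to 1.50) and 1.49 to 6-MP (1.23 to 1.80). After median-ratio scaling only the interval against 6-MP lay above 0 on the log2 scale, with 0.33 (0.059 to 0.61), beside 0.07 (-0.19 to 0.34) against vehicle and 0.12 (-0.14 to 0.38) against histidine. GNB5 had an FPKM of 1.29 after vehicle, 1.40 after histidine, 1.45 after 6-MP and 2.31 after the combined treatment, a difference of 0.53 from vehicle on the log2(FPKM + 1) scale.

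RGS19 (ENSG00000171700, chr20:64073181-64079988) encodes an RZ protein that acts on Gi alpha subunits and binds the scaffold GIPC1. It had an FPKM of 24.6 after vehicle, 22.8 (21.1 to 24.5) after histidine, 23.7 (22.0 to 25.5) after 6-MP and 29.7 (27.7 to 31.9) after the combined treatment. The combined library did not overlap any other, and the other 3 overlapped one another. The read ratio was 1.21 to vehicle (1.09 to 1.34), 1.30 to histidine (1.18 to 1.45) and 1.25 to 6-MP (1.13 to 1.39). After median-ratio scaling the intervals against vehicle and 6-MP reached 0, at 0.03 (-0.12 to 0.18) and 0.09 (-0.06 to 0.24) on the log2 scale, and the one against histidine stayed above it, at 0.18 (0.03 to 0.33). GIPC1 was at 7.63 after vehicle and 6.11 after the combined treatment. The start of RGS19 lies 94 bases from OPRL1, the gene of the nociceptin receptor, which was at 0.614 after vehicle and 1.17 after the combined treatment.

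Counted together, the 10 genes had a summed FPKM of 61.7 after vehicle, 61.4 after histidine, 64.3 after 6-MP and 88.1 after the combined treatment, and without RGS16 the sums were 61.6, 61.3, 64.2 and 83.5. Of the 10 genes, 8 passed the low-value filter, and RGS3 and RGS18 did not. Against vehicle, RGS16 alone reached an absolute log2 fold change of 1 after the combined treatment, 1 of 8 genes, beside 6.53% of all 12750 genes. The count was again 1 of 8 against 6-MP, beside 6.02%, and 1 of 8 against histidine, beside 5.55%. For the departure from additivity, the log2(FPKM + 1) of the combined treatment less that of each single agent plus that of vehicle, it was 1 of 8 beside 6.76%. RGS16 departed by 2.34, RGS1 by 0.86 and, below the filter, RGS3 by 0.76, whereas RGS14 was at -0.01. None of the 8 genes reached the threshold for histidine against vehicle, beside 1.33% of all genes, or for 6-MP against vehicle, beside 1.18%. The set had been chosen with these contrasts in view, so nothing is read from these shares.

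Among the 8 genes past the filter, the interval of the read ratio lay above 0 on the log2 scale for 7 against vehicle, beside 42.7% of the 12750 genes, for 7 against 6-MP, beside 42.2%, and for 7 against histidine, beside 41.2%. With RGS3 and RGS18, which are below the filter, the count was 8 of 10 each time. In all 3 comparisons the exceptions were RGS14 and RGS18, and no interval lay below 0. These comparisons share the combined library and are not independent of one another. RGS16 and RGS1 passed the filter only through the combined library, so a high value there was a condition of their being among the 8. The counts and medians of the 8 genes given here include both. The median log2(FPKM + 1) difference of the 8 genes was 0.42 against vehicle, 0.40 against 6-MP and 0.35 against histidine, beside medians of 0.13, 0.13 and 0.11 over all 12750 genes. For histidine and 6-MP alone the medians were 0.04 and -0.01, beside 0.015 and 0.0039. The combined library lay high over all genes, and median-ratio scaling lowered its log2 read ratios by 0.24 against vehicle, 0.24 against 6-MP and 0.20 against histidine. After this scaling the interval lay above 0 for 4 of the 8 genes in each comparison, beside 24.2% of all genes against vehicle, 24.7% against 6-MP and 25.6% against histidine, and 4700 to 4807 of all genes had an interval below 0. With RGS3 the count was 5 of 10. RGS1, RGS3 and RGS16 were among the 5 in all 3, joined by RGS10 and RGS12 against vehicle, by RGS9 and RGS12 against 6-MP, and by RGS10 and RGS19 against histidine. The scaling turned RGS14 to -0.20 (-0.41 to 0.01) against vehicle and to -0.07 against histidine, and RGS14 against 6-MP was the 1 interval of the 10 genes that lay below 0. Over all genes the split past the fold threshold was 639 higher and 193 lower against vehicle as deposited, and 393 and 340 after the scaling. Against 6-MP it was 614 and 153, then 359 and 279, and against histidine 529 and 178, then 346 and 294.

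**Figure D2:**
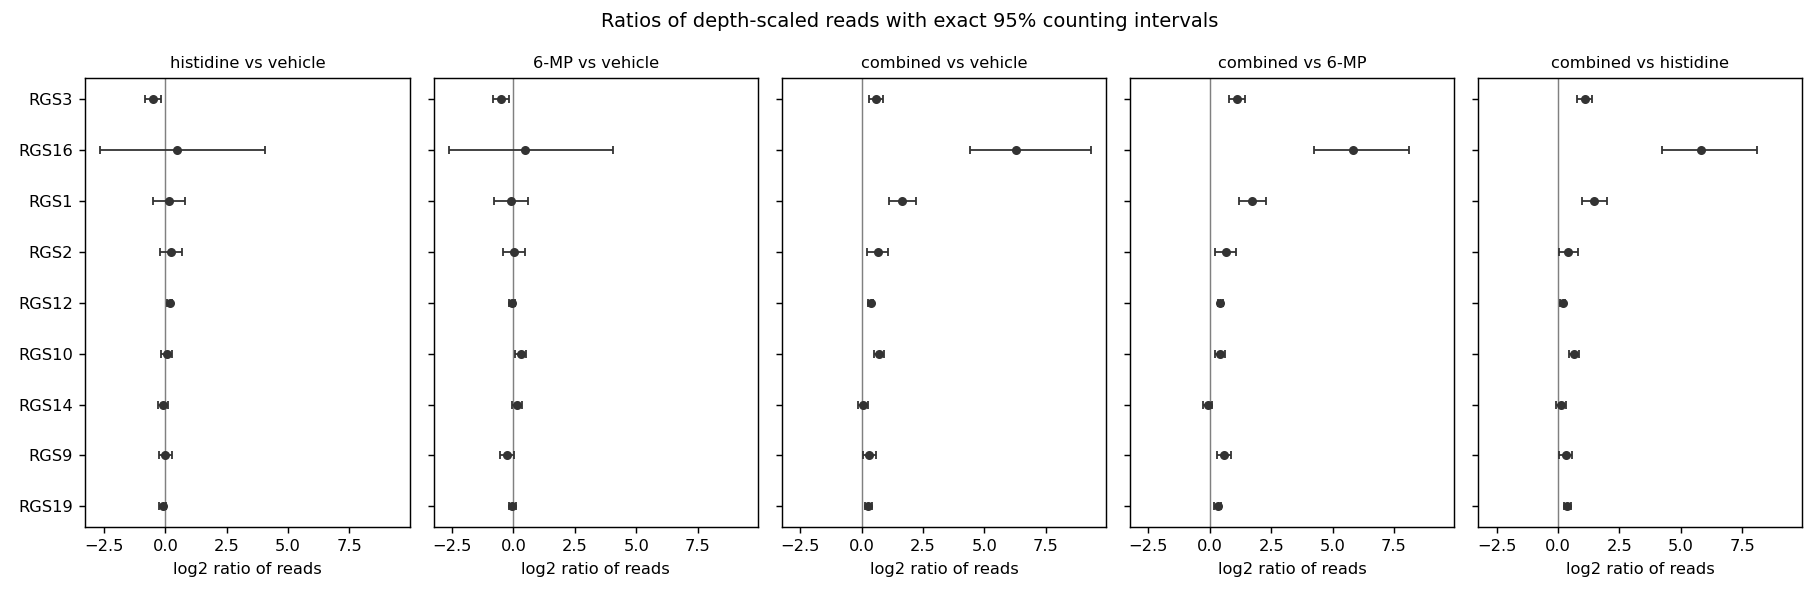
Log2 ratios of depth-scaled reads (horizontal axes) for 9 RGS genes in 5 comparisons between libraries, with exact 95% counting intervals, without RGS18. After the combined treatment RGS16 and RGS1 lie furthest to the right (6.30 and 1.63 against vehicle), while RGS3 lies left of 0 for each agent alone and right of 0 for the combined treatment.

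**Figure D3:**
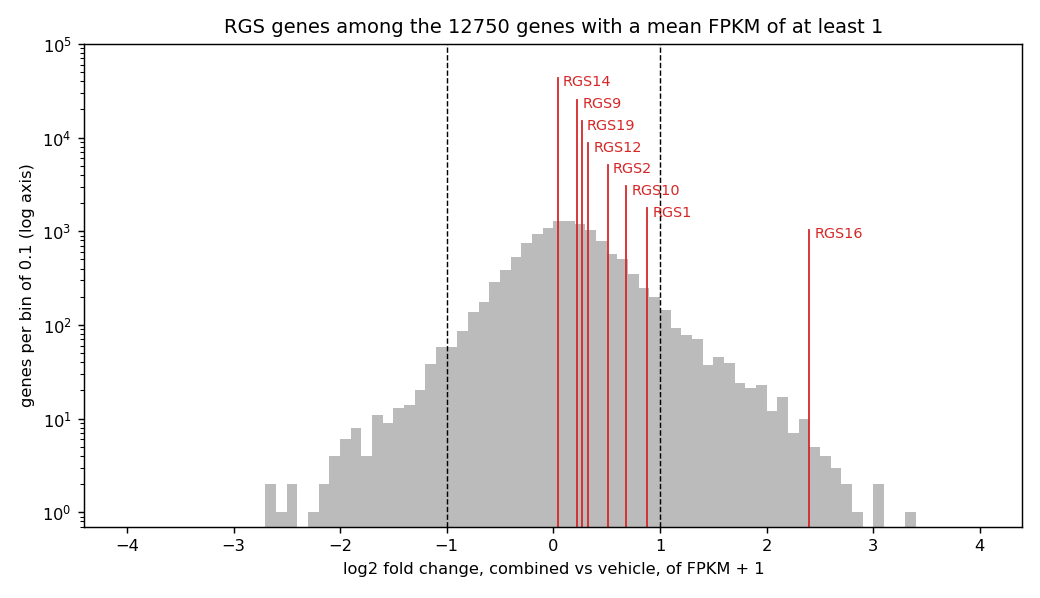
Histogram of the log2 fold change of FPKM + 1, combined treatment against vehicle, over the 12750 genes whose mean FPKM was 1 or more (genes per bin of 0.1 on a log axis), with red lines at the 8 RGS genes that passed this filter and dashed lines at the threshold of 1. RGS16 at 2.40 lies in the upper tail, and the other 7 lie between 0.04 and 0.88.

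The rows with an RGS name outside the set were mostly lower. Of the 11, only RGS17P1, a processed pseudogene, had a mean FPKM above 1 (3.18), on 16 to 35 reads, and reads of RGS17P1 and its parent RGS17 may not be separable. Among coding genes, RGS5 had a mean FPKM of 0.412, RGS17 0.351, RGS13 0.236 and RGS22 0.122. RGS5 also had a lncRNA row with a mean of 0.840, which overlaps the coding gene. RGS9BP, which encodes a protein that binds RGS9 and not an RGS protein, had 0.116. RGS20, RGS11, RGSL1 and RGS6 were below 0.06, on at most 4 reads in any library. RGS18, with a mean of 0.0293, is lower than several of these rows, so no level of expression separates the 10 genes from the rest of the family.

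The coding genes past the filter whose pattern was nearest to that of RGS16 were ITGAM, PLK2, TP53INP1, PLEK and BTG2, at distances of 0.13, 0.13, 0.16, 0.20 and 0.23 over the 3 log2(FPKM + 1) differences from vehicle. ITGAM, a leukocyte integrin subunit, had an FPKM of 3.14 after vehicle and 19.2 after the combined treatment. PLK2, a polo-like kinase, went from 1.89 to 14.2, and BTG2, an antiproliferative gene, from 12.1 to 72.4. With only 3 differences behind each distance, likeness means that a gene was high in the combined library and near vehicle in both others. The pseudocount of 1 shrinks the difference of RGS16, which had 2 reads after vehicle and 142 after the combined treatment. ITGAM had 256 and 1407 reads, so a small distance does not mean a like read ratio.

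Coding genes next to the RGS genes differed among themselves, and only some of them are given here. GRK5, a receptor kinase gene 40.1 kb from RGS10, was at an FPKM of 1.53 after vehicle and 2.94 after the combined treatment, a difference of 0.64 on the log2(FPKM + 1) scale, and TIAL1 on the other side at 19.3 and 26.2 (0.43). UCHL5, next to RGS2, was at 11.9 and 9.67 (-0.28), and LMAN2, next to RGS14, at 69.4 and 70.1 (0.01).

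The other genes of the G protein cycle were counted in the same way. Of the 15 listed G alpha genes, 8 passed the low-value filter, and none reached the fold threshold after the combined treatment against vehicle. Their median log2(FPKM + 1) difference was -0.11, with GNA15 (69.4 after vehicle, 60.9 after the combined treatment) and GNAS (38.2 and 35.2) the most abundant. It was -0.35 after median-ratio scaling and turned to 0.08 after TPM scaling, where 11 genes passed the filter. Of the 9 G beta and gamma genes none reached the threshold, with a median of 0.10 that turned to -0.14 after median-ratio scaling. After TPM scaling 1 of 14 was past it upward, beside 2446 of all 17949 genes. This was GNG13, on 7 reads after vehicle and 23 after the combined treatment. GNB1 was at 97.8 and 85.2. None of the 12 receptor kinases, RhoGEFs and scaffolds that share an RGS homology domain reached the threshold (median 0.09, turned to -0.11 by median-ratio scaling), with GRK2 at 133.5 and 112.6. The 5 GoLoco and RIC8 genes had a median of 0.18, turned to -0.01 by the same scaling, and none reached the threshold.

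Receptors act upstream of the G proteins that RGS proteins switch off. Of the 22 lymphocyte G protein-coupled receptor genes examined, 10 passed the filter, and 2 of them reached the threshold upward and none downward against vehicle, beside 639 of all 12750 genes upward and 193 downward. After TPM scaling, under which the pseudocount and filter weighed less, it was 4 of 13 upward, with HRH2 and CNR2 added. Of all 17949 genes past the filter under that scaling, 2446 were upward. The 2 genes past the threshold as deposited were CCR7, the lymph node homing receptor, and S1PR2, a sphingosine 1-phosphate receptor. CCR7 was at 1.67 after vehicle, 2.24 after histidine, 1.51 after 6-MP and 17.0 after the combined treatment. S1PR2 was at 2.01, 2.41, 2.68 and 7.49. CXCR4, the most abundant receptor of the list, whose signaling RGS1 and RGS16 are known to limit in lymphocytes, was at 107.1 and 160.2, a difference of 0.58, and S1PR4 was at 55.5 and 80.5. Of the 10 receptors 2 were lower in the combined library. P2RY8, which confines B cells to germinal centers and was the next most abundant of the list, was at 53.3 after vehicle and 32.1 after the combined treatment, a difference of -0.72, and F2R, the thrombin receptor, at 11.0 and 8.69 (-0.31). The median of the 10 receptors was 0.62, beside 0.13 over all genes, and 0.39 after median-ratio scaling, beside -0.07. Among the 14 effector genes of cAMP, phospholipase C and PI3K gamma signaling, 1 reached the threshold, beside 6.53% of all genes. It was the adenylyl cyclase gene ADCY6, with 3.10 after vehicle, 3.33 after histidine, 3.49 after 6-MP and 8.91 after the combined treatment. PRKACA, which encodes a catalytic subunit of protein kinase A, was lower, at 1.97 after vehicle, 1.63 after histidine, 0.646 after 6-MP and 0.579 after the combined treatment. Its difference from vehicle was -0.91 on the log2(FPKM + 1) scale, and its log2 read ratio was -1.77 (-2.21 to -1.34). The count was 1 higher and 1 lower (PRKACA) of 14 after median-ratio scaling, beside 393 higher and 340 lower of all 12687 genes. After TPM scaling it was 3 higher and 1 lower of 17, beside 2446 higher and 660 lower of all 17949 genes. The median of the 14 genes was 0.18 and turned to -0.03 after median-ratio scaling.

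**Figure D4:**
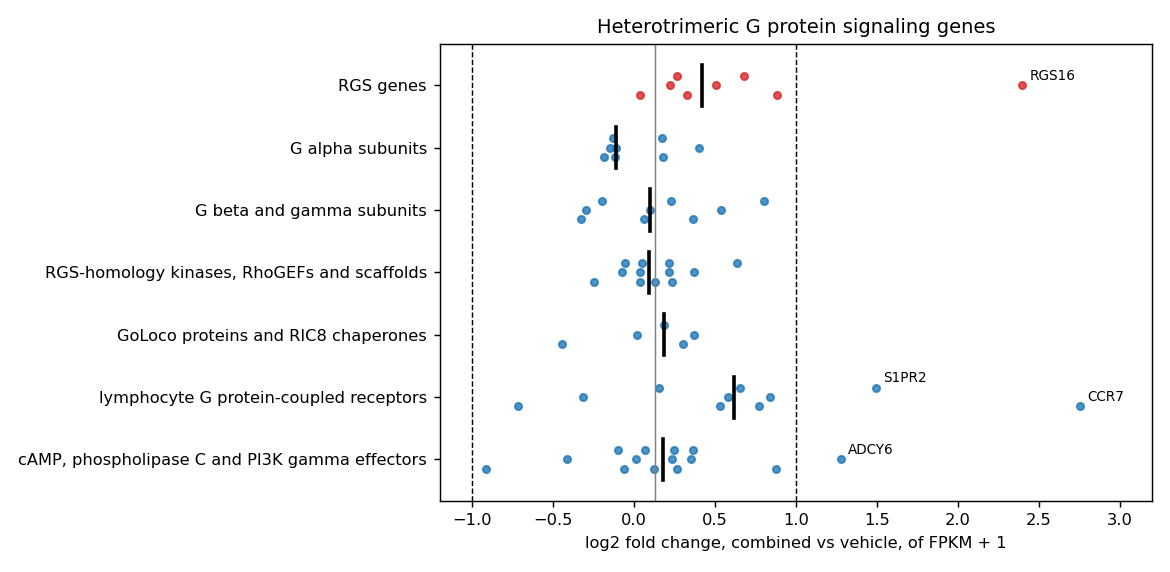
Log2 fold change of FPKM + 1, combined treatment against vehicle, for genes whose mean FPKM was 1 or more (points) in the RGS set (red) and in 6 groups of G protein signaling genes (blue). Black bars are medians, the grey line is the median of all 12750 genes (0.13), dashed lines mark 1 and -1, and RGS16, CCR7, S1PR2 and ADCY6 lie beyond the upper one.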

How the data were processed

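RNA-seq of Reh-6-MPR cells comprised 4 libraries, 1 per treatment, grouped by the sample labels. Poly(A) libraries were made with a stranded kit. The authors deposited FPKM per gene, quantified by a service company. The submitters' processing notes name Trimmomatic, HISAT2, Cufflinks and HTSeq and the build GRCh38 (hg38), with no version or role. Cufflinks and HTSeq treat reads shared by overlapping or similar genes differently, and which one made the values is not given in the sources used here. The authors' DESeq2 comparison was not repeated, since no group has replicates.

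Whole reads were recovered from the steps of the FPKM values for 29832 of 29833 genes, within a tolerance of 0.0001 of a whole number or the rounding of the file. Their sum was 100.459% to 100.472% of the library divisors, so the reads of some genes outside the RGS set may be a multiple of the true number. Differences were taken on log2(FPKM + 1). The 12750 genes whose mean FPKM reached 1 were counted past an absolute log2 difference of 1. Intervals of read ratios are exact Clopper-Pearson 95% intervals. They compare libraries and cover counting error only. Alternatives were a pseudocount of 0.1, no filter, a mean FPKM of at least 5, median-ratio scaling and TPM scaling. Genes named were all 10 RGS genes, genes past the threshold and the most abundant of each list, some of the nearest coding neighbours, and the 5 coding genes nearest to RGS16 in pattern. The neighbours were picked with their values known. Other genes named were chosen after their values were seen. A receptor gene and a neighbouring gene are not reported here. The RGS genes, lists and alternatives were chosen with earlier results of these data known. Promoter windows came from RefSeq. The recovery and the intervals were tested on simulated data. Software was Python 3.11.15 with matplotlib 3.10.9, scipy 1.17.1, pandas 2.3.3 and numpy 2.4.6.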

Additional observations from a re-analysis of the deposited data

Results flagged for a closer look

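RGS3 was the 1 of the 10 genes in which each agent alone lay below vehicle while adding the same agent to the other gave a higher level than the other alone, with none of these intervals reaching 0. This difference in direction drew attention to it. Histidine alone had a log2 read ratio of -0.49 to vehicle, and histidine added to 6-MP had 1.10 (0.80 to 1.41). 6-MP alone had -0.50, and 6-MP added to histidine had 1.09 (0.78 to 1.39). Both pairs differ by 1.59, as they must, because this is the same quantity taken in another order. Each value rests on 1 library, both pairs use the same 4 libraries, and the difference was not tested. Over the 12750 genes past the filter, which leave out RGS3, 8.74% had an interval below 0 for histidine alone and 7.95% for 6-MP alone. For the combined treatment, 42.2% lay above 0 against 6-MP and 41.2% against histidine. How many genes met all of these conditions was not counted, so the 1 of 10 has no share over all genes beside it. RGS3 covers 153 kb of chromosome 9 and was counted over a length of 13793 bases equal to the joined exons of its annotated isoforms, so which isoform moved cannot be told from these values.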

How the results depend on the processing

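No paired analysis was possible because every group was a single library, and for that reason no replicate could be left out. RGS16 was past the threshold in the combined library in every setting that kept it. A pseudocount of 0.1 left the filter as it was, with 8 RGS genes and 12750 of all genes past the filter. With a pseudocount of 0.1, RGS genes past the fold threshold numbered 2 against vehicle, 2 against 6-MP, 2 against histidine and 2 for additivity, in each case RGS1 and RGS16, and all genes past it numbered 1179 higher and 334 lower against vehicle, 1125 and 272 against 6-MP, 954 and 324 against histidine, 1083 and 418 for additivity, 223 and 166 for histidine alone and 170 and 219 for 6-MP alone. Under TPM scaling 9 RGS genes and 17949 of all genes passed the filter. The counts of RGS genes were then 2, 2 and 2 and, for additivity, 3, with RGS3 added. In the same order, 2446 and 660, 2276 and 626, 2092 and 727, 2326 and 1021, 674 and 485, and 595 and 567 of all genes were past the threshold. At a mean FPKM of at least 5 the counts were 0 in all 4, since RGS16 and RGS1 did not pass this filter. It left 4 RGS genes and 7369 of all genes. Of these 7369, the genes past the threshold numbered 215 and 88, 189 and 80, 183 and 81, 186 and 96, 11 and 10, and 7 and 10. Without a filter the counts of RGS genes were as reported, now of 10 genes. Those of all 29833 genes were 949 and 296, 915 and 257, 811 and 308, 1049 and 506, 219 and 155, and 162 and 182. After median-ratio scaling RGS1 dropped below the filter, which 7 RGS genes and 12687 of all genes passed. This scaling left the counts of RGS genes past the threshold as they were. Among the 8 genes past the filter on deposited values, it took the intervals above 0 from 7 to 4 in each comparison. Over the 12750 genes past the same filter the share fell from 42.7% to 24.2% against vehicle, from 42.2% to 24.7% against 6-MP and from 41.2% to 25.6% against histidine. Of all 10 RGS genes the count went from 8 to 5. Depth limits RGS16 and RGS18 most, since the other 3 libraries held at most 3 reads of RGS16.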
